A study of Homo sapiens with 4 samples.

Results

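Of the 24424 gene symbols counted in RNA of BEAS-2B cells, 10 that are widely used to tell epithelial from mesenchymal cells were followed: the 5 epithelial markers CDH1, EPCAM, KRT5, KRT8 and KRT18, and the 5 mesenchymal markers CDH2, VIM, FN1, SNAI2 and ZEB1. They were taken by symbol, and all 10 were found and passed a minimum of 16 normalized counts in every library. BEAS-2B, an established human cell line from bronchial epithelium, was immortalised with a virus. The study compared 4 conditions with 1 library each: untreated cells (Control), cells given LPS for 2 hr (LPS), and cells given the WT PDZ or the mut PDZ peptide for 24 hr and then LPS for 2 hr (WT PDZ+LPS and mut PDZ+LPS). LPS, lipopolysaccharide, is a bacterial cell wall component that sets off an inflammatory response. WT PDZ is a cell-permeable peptide built on the first PDZ domain of the tight junction protein ZO-1, and in mut PDZ a pair of neighbouring glycines is replaced by alanines. All 4 libraries came from cells of the same line without a genetic change added for the study, and a peptide without LPS was not analysed here.

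Epithelial cells hold to each other through E-cadherin and desmosomes and carry a skeleton of keratin filaments, whereas mesenchymal cells have N-cadherin, a vimentin skeleton and a fibronectin-rich matrix. In epithelial to mesenchymal transition (EMT), transcription factors of the SNAI, ZEB and TWIST families repress E-cadherin and other epithelial genes. Airway basal cells, the stem cells of the bronchial lining, express KRT5 and SNAI2, and airway epithelial lines in culture often carry vimentin beside their keratins.

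The authors deposited the number of reads per gene symbol, and the counts summed to between 19682929 (mut PDZ+LPS) and 25155647 (LPS) in a library. Counts were divided by size factors (median of ratios), and 1 normalized count was added before log2. With 1 library per condition there was no replicate check and no test, and the 95% intervals below are exact binomial (Clopper-Pearson) for 2 libraries or exact Poisson for 1. These intervals hold counting error only, and no variation between cultures of a condition. Reads that carry no molecular identifier are not independent molecules, so the intervals can be too narrow even for counting error. A gene was called where its fold between 2 libraries was 2 or more and either of them held 16 or more normalized counts. In the mut PDZ+LPS library, values moved with transcript length: over 12127 genes, Spearman's rho of length with log2 fold change, across genes, was -0.605 in mut PDZ+LPS/LPS, against 0.0742 in WT PDZ+LPS/LPS. Most log2 fold changes that involve mut PDZ+LPS are therefore also given after removal of the trend with transcript length and GC content, called corrected below, while counts, shares and intervals are uncorrected. In RNA of a whole culture, fewer cells of a type and less RNA per cell cannot be told apart.

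The 250 bases before the start of 3 members are shown, FN1 and KRT5 because they had the highest log2 fold changes of the members in LPS/Control, and VIM because it had the highest level at rest. The sequences are from RefSeq (GRCh38.p14), 5′ to 3′ on the strand of the gene, and 6 of the 10 members matched the RefSeq table used (CDH2, FN1, KRT5, KRT8, VIM and ZEB1). FN1 lies at chr2:215436069-215436318 (minus strand), KRT5 at chr12:52520395-52520644 (minus strand) and VIM at chr10:17227991-17228240 (plus strand). Capitals mark matches, on either strand, to the cAMP response element TGACGTCA, the GC box GGGCGG or the E-box CAGGTG, the letters that SNAI and ZEB factors are known to bind. The AP-1 site TGACTCA and the TATA box TATAAA were searched as well and matched none of these 3 windows.
FN1: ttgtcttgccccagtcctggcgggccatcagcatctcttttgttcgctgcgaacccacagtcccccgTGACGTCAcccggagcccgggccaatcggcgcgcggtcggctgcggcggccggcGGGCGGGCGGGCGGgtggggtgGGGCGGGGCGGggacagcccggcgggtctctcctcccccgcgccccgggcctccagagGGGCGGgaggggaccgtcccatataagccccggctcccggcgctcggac
KRT5: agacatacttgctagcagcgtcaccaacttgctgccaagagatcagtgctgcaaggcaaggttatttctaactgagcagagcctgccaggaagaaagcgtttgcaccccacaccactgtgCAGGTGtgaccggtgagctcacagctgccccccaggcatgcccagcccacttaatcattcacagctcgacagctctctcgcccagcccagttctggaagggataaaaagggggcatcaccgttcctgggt
VIM: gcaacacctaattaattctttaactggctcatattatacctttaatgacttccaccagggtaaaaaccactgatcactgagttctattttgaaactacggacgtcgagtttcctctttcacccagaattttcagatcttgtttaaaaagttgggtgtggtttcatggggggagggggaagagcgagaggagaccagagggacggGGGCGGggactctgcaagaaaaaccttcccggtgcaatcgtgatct
The FN1 window held 1 cAMP response element, which starts 183 bases before the start of the gene and was found in 1.65% of 35116 windows of the same length. It also held 6 GC boxes, some of which overlap each other, and 42.6% of all windows held at least 1. The KRT5 window held 1 E-box, 130 bases before the start, which 17.5% of all windows have, and the VIM window held 1 GC box. The KRT8 window (chr12:52926470-52926719, minus strand) held none of the 5 motifs. Each window stands before 1 RefSeq start, and other starts of KRT8 were not searched. The AP-1 site and the TATA box were in 4.2% and 10.7% of all windows. A match is a description of the letters and does not show that a factor binds there.

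At rest, markers of both identities were among the most abundant transcripts of the line, while both cadherins, EPCAM and the transcription factors were far lower. Levels were compared between genes as CPM (counts scaled to the library total) per kilobase of transcript in Control, using the longest protein-coding transcript in GENCODE 29. VIM, which encodes the mesenchymal filament vimentin, was highest with 451 (95% counting interval 445 to 457), above 99.4% of the 14903 genes ranked. KRT18 and KRT8, the partner keratins of simple epithelia, followed with 403 and 315, above 99.3% and 99.1% of genes. FN1, which encodes the matrix protein fibronectin, had 141 and stood above 97.4% of genes. These 4 members led the order, 2 of each identity.

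KRT5, the keratin of basal cells, had 18.6 CPM per kilobase in Control, above 73.8% of genes. ZEB1, a repressor of epithelial genes, had 6.05 (5.67 to 6.45), and CDH1, which encodes E-cadherin, had 5.22 (4.83 to 5.65), above 48.5% and 45.7% of genes. The EMT factor and the gene it is known to repress thus stood next to each other in the order. EPCAM, an epithelial surface adhesion molecule, had 1.19 (0.887 to 1.57), CDH2, which encodes N-cadherin, had 1.06 (0.874 to 1.27), and SNAI2, the EMT and basal cell factor also known as Slug, had 0.713 (0.516 to 0.961). The interval of CDH2 overlapped those of both EPCAM and SNAI2, which does not show that their levels were alike, and a difference between these neighbours was not tested. The level depends on the transcript length used: with the median length of the protein-coding transcripts, KRT8 (454) stood above KRT18 (438), and CDH2 (6.21) above EPCAM (1.34).

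**Figure D1:**
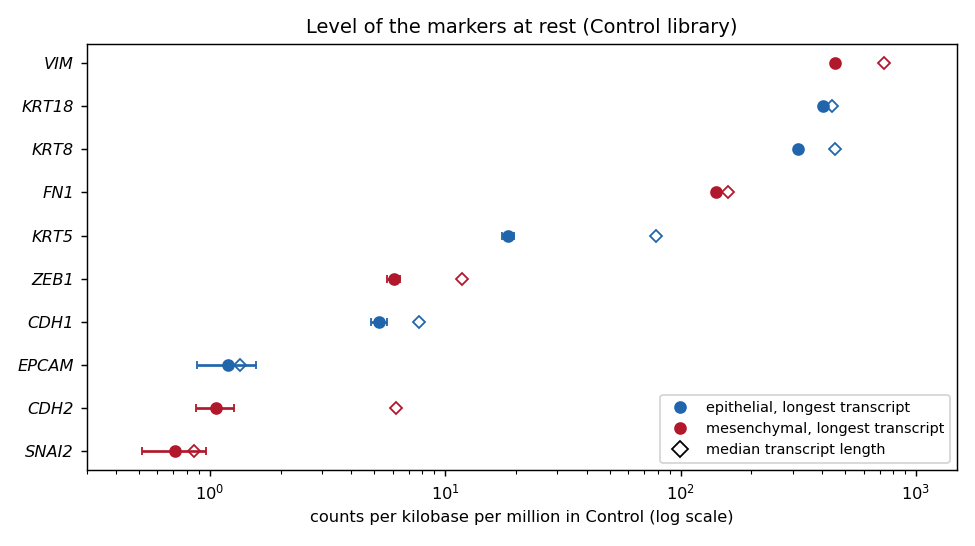
CPM per kilobase of transcript in the Control library (log axis) for the 5 epithelial (blue) and 5 mesenchymal (red) markers. Filled points use the longest transcript, with exact Poisson 95% counting intervals (hidden by the point where narrow), and open diamonds use the median transcript length. VIM, KRT18, KRT8 and FN1 stand apart from the other markers, and SNAI2 is lowest.

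The other markers of airway identity at rest gave a similar mixture. Among the other keratins KRT7, a keratin of simple epithelia, had 1110 CPM per kilobase in Control, above every member, and KRT17 had 147. KRT14, the usual partner of KRT5 in basal cells, had 38 counts in Control, and KRT5 made up between 96.8% and 97.4% of the summed KRT5 and KRT14 counts in the 4 libraries. Of the 11 basal cell markers 10 had at least 16 normalized counts in Control, and TP63, the defining factor of basal cells, had 46 counts. Several regulators of the epithelial state, named here after their values were seen, had 3 counts or fewer in each library: GRHL2, OVOL1, OVOL2 and the splicing factor ESRP1. ESRP2, the paralog of ESRP1, had 1074 counts in Control.

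Some of the listed markers of the other cell types of the airway were at 0 in all 4 libraries, and others were not. Among the latter in Control were ABCA3 (298 counts) for alveolar, CCDC40 (103 counts) for ciliated and KDR (23 counts) for endothelial cells. Those at 0 were SCGB1A1, SCGB3A1 and SCGB3A2 for club cells, TFF3 and CLCA1 for goblet cells, FOXJ1, DNAI2 and TPPP3 for ciliated cells, SFTPA1 for alveolar cells and TIE1 for endothelial cells. For fibroblasts, another source of VIM and FN1, COL3A1, LUM and POSTN were at 0 in all 4 libraries, whereas FBLN1 had 6341 counts and COL1A1 331 counts in Control. For leukocytes, PTPRC, CD3D, MS4A1 and FCGR3A were at 0, and CD14 and CD68 had 507 and 350 counts in Control. At least 16 normalized counts in Control were reached by 0 of 7 club, 1 of 8 goblet, 3 of 11 ciliated, 5 of 12 alveolar, 4 of 12 fibroblast, 1 of 8 endothelial and 2 of 12 leukocyte markers. The summed level of the fibroblast list ran from 256 to 289 CPM over the 4 libraries, that of the leukocyte list from 30.9 to 38.9 and that of the endothelial list from 1.42 to 1.71. At the 2-fold rule used below, single genes of these lists were called on low counts or in one library: MUC5AC (9 counts in Control, 22 in LPS), DNAH5 (7 counts in Control, 19 in WT PDZ+LPS), CAPS (48 counts in mut PDZ+LPS, 20 to 29 in the others), FAP (31 counts in Control, 53 in mut PDZ+LPS) and AGER (64 counts in WT PDZ+LPS, 122 in mut PDZ+LPS). The highest alveolar marker, CAV1, is expressed by many cell types and also stands in the list of mesenchymal genes.

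None of the 10 members was called at 2-fold in any of the 6 comparisons between libraries. In LPS/Control 0 of 10 were called, where 4.87% of all genes tested were. The share of all genes called was 4.7% in WT PDZ+LPS/Control, 8.09% in mut PDZ+LPS/Control, 1.37% in WT PDZ+LPS/LPS, 3.95% for mut PDZ against the same library and 4.26% in mut PDZ+LPS over WT PDZ+LPS, so a count of 0 among 10 members is near this background. The widest range over the 4 libraries was that of SNAI2, whose highest library was 1.83 times its lowest, and the narrowest that of VIM, at 1.20 times. These comparisons share libraries, Control in 3 of them and LPS in 3, and are not independent of each other.

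**Figure D2:**
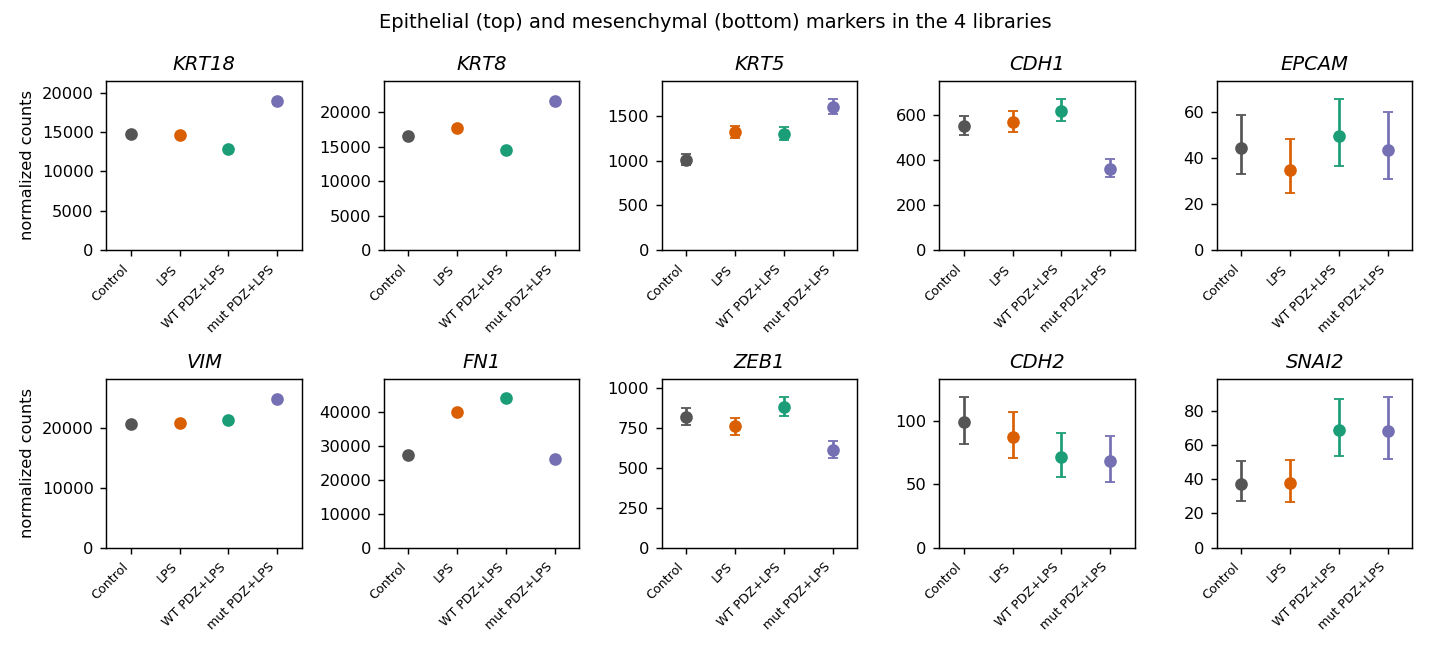
Normalized counts of the 5 epithelial (top row) and 5 mesenchymal (bottom row) markers in the 4 libraries, with exact Poisson 95% counting intervals and axes that start at 0. FN1 is high in LPS and WT PDZ+LPS, SNAI2 in both peptide libraries, and CDH1 is lowest in mut PDZ+LPS.

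After 2 hr of LPS, FN1 and KRT5 were the members that stood furthest above Control, and 7 of the 10 members did not differ beyond counting error. FN1 had 27143 normalized counts in Control, 39880 after LPS alone, 43916 for WT PDZ+LPS and 26147 for mut PDZ+LPS. The LPS and WT PDZ+LPS libraries were high and the other two low, with each step in this order beyond counting error. Its log2 fold change in LPS/Control was 0.56 (0.53 to 0.58). KRT5 had 1015 normalized counts in Control, 1324 after LPS alone, 1307 for WT PDZ+LPS and 1607 for mut PDZ+LPS, so Control was lowest. Its log2 fold change in LPS/Control was 0.38 (0.27 to 0.50), and LPS and WT PDZ+LPS did not differ beyond counting error.

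KRT8 was the third member whose LPS/Control interval left out 0, with a log2 fold change of 0.10 (0.074 to 0.13) that turned to -0.028 when libraries were scaled by their total counts. Its normalized counts were 16563 in Control, 17796 after LPS alone, 14488 for WT PDZ+LPS and 21612 for mut PDZ+LPS, and every step in this order was beyond counting error. An interval without 0 was found for 3 of 10 members in LPS/Control, against 47.1% of all genes tested. None of the members reached 1.5-fold in LPS/Control, which 11.5% of all genes did. The median log2 fold change was 0.045 for the epithelial and 0.0076 for the mesenchymal members, beside -0.0010 for all 13072 genes that averaged 16 or more normalized counts.

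CDH1 was near its Control level after LPS, while CDH2 and EPCAM, on few counts, did not differ from Control beyond counting error. CDH1 had 552 normalized counts in Control, 569 after LPS alone, 620 for WT PDZ+LPS and 362 for mut PDZ+LPS, so that mut PDZ+LPS was low and the other 3 did not differ between neighbours. Its log2 fold change in LPS/Control was 0.045 (-0.12 to 0.21). CDH2 had 99.2 normalized counts in Control, 87.5 after LPS alone, 71.7 for WT PDZ+LPS and 68.1 for mut PDZ+LPS, with no step between neighbours beyond counting error. EPCAM had 44.4, 34.8, 49.5 and 43.5 normalized counts in the same order, and no neighbours differed beyond counting error. In LPS/Control, EPCAM was at -0.34, the lowest of the 10 members, and CDH2 at -0.18 (-0.59 to 0.23). At 37 to 51 counts a library, a difference of EPCAM in LPS/Control was not detectable at this depth, with an interval of -1.0 to 0.29.

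VIM and KRT18 were also near their Control level after LPS. VIM had 20794 normalized counts in Control, 20935 after LPS alone, 21374 for WT PDZ+LPS and 24975 for mut PDZ+LPS, where mut PDZ+LPS was highest and Control and LPS did not differ beyond counting error. Its log2 fold change in LPS/Control was 0.0097 (-0.017 to 0.036), which scaling by total counts moved to -0.12 and the upper quartile to -0.052. KRT18 had 14774 normalized counts in Control, 14630 after LPS alone, 12781 for WT PDZ+LPS and 18874 for mut PDZ+LPS. It was highest in mut PDZ+LPS and lowest in WT PDZ+LPS, as KRT8 was, and its log2 fold change in LPS/Control was -0.014 (-0.046 to 0.017).

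The transcription factors SNAI2 and ZEB1 did not differ between LPS and Control beyond counting error. SNAI2 had 43 counts in Control, 40 after LPS alone, 68 for WT PDZ+LPS and 58 for mut PDZ+LPS, or 37.4, 37.6, 68.7 and 68.1 normalized counts. Both libraries without peptide were low and both peptide libraries high, and within each pair the counts did not differ beyond counting error. The LPS/Control interval of SNAI2 was -0.65 to 0.66. ZEB1 had 819 normalized counts in Control, 759 after LPS alone, 884 for WT PDZ+LPS and 613 for mut PDZ+LPS, and its LPS/Control value on the log2 scale was -0.11 (-0.25 to 0.028). WT PDZ+LPS was highest and mut PDZ+LPS lowest, and the latter step was the only one between neighbours beyond counting error.

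With the WT PDZ peptide before LPS, SNAI2 was the member furthest from its level in LPS. Its log2 fold change in WT PDZ+LPS/LPS was 0.85 (0.28 to 1.47). It was the 1 member of 10 that reached 1.5-fold, where 4.31% of all genes did. ZEB1 was higher in WT PDZ+LPS/LPS by 0.22 (0.079 to 0.36) on the log2 scale, FN1 by 0.14 (0.12 to 0.16) and VIM by 0.030 (0.0027 to 0.057). The partner keratins were lower, KRT8 at -0.30 (-0.33 to -0.27) and KRT18 at -0.19 (-0.23 to -0.16). The intervals of EPCAM (0.50, -0.14 to 1.16), CDH1 (0.12, -0.041 to 0.29), KRT5 (-0.020, -0.13 to 0.090) and CDH2 (-0.28, -0.75 to 0.17) included 0. An interval without 0 was thus found for 6 of 10 members, against 22.3% of all genes, and the members hold several of the most abundant genes, whose intervals are narrow.

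Of the 5 mesenchymal members 4 had an interval above 0 in WT PDZ+LPS/LPS, and of the 5 epithelial members none did while 2 had an interval below 0. Among these 4, VIM was closest to 0, with a lower bound of 0.0027. TMM scaling put the median of all genes at -0.0013 in place of 0.0075, so the sign of the lower bound of VIM depends on the scaling. The epithelial EPCAM and CDH1 lay above 0 and the mesenchymal CDH2 below it, against this split. Their intervals were wider and included 0. The medians were 0.14 for the mesenchymal and -0.020 for the epithelial members, beside 0.0075 for all genes, of which the middle 50% lay between -0.075 and 0.087. In WT PDZ+LPS/Control, FN1 (0.69, 0.67 to 0.72) and SNAI2 (0.86, 0.30 to 1.46) were the 2 members that reached 1.5-fold, both higher, where 11.2% of all genes did. KRT8 (-0.19) and KRT18 (-0.21) were below Control as well, as was CDH2 at -0.46 (-0.92 to -0.029). CDH1 was at 0.17 (0.0057 to 0.33) and KRT5 at 0.36 (0.25 to 0.48). In all, 8 of 10 members had an interval without 0 in WT PDZ+LPS/Control, against 47.1% of all genes.

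**Figure D3:**
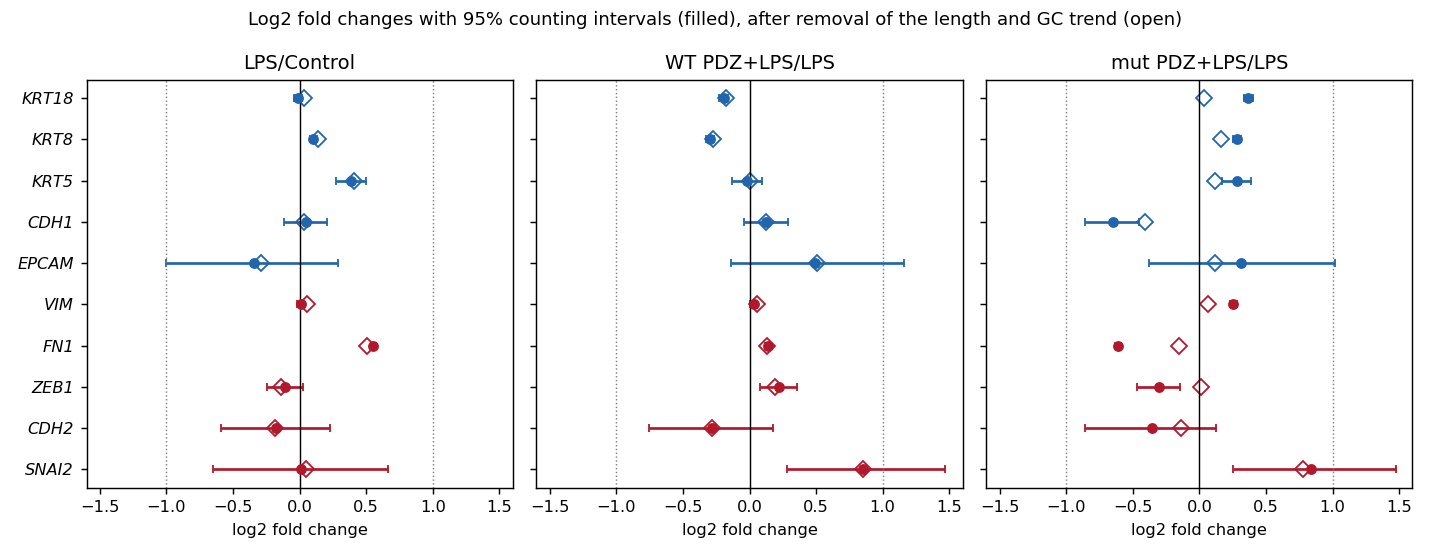
Log2 fold changes of the markers in LPS against Control (left) and in WT PDZ+LPS (middle) and mut PDZ+LPS (right) against LPS, with 95% counting intervals (filled points, epithelial in blue and mesenchymal in red) and after removal of the trend with transcript length and GC content (open diamonds). Dotted lines mark 2-fold. No point lies beyond them, and the correction moves FN1 in mut PDZ+LPS/LPS from -0.61 to -0.15.

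With the mut PDZ peptide before LPS, CDH1 and FN1 were lower than in LPS, SNAI2 was higher, and most of these values moved with the correction. The log2 fold change of CDH1 in mut PDZ+LPS/LPS was -0.65 (-0.86 to -0.45), or -0.41 corrected. That of FN1 was -0.61 (-0.63 to -0.59), or -0.15 corrected. SNAI2 was at 0.84 (0.25 to 1.48), or 0.78 corrected, close to its value with WT PDZ, and SNAI2 in mut PDZ+LPS over WT PDZ+LPS was at -0.011 (-0.54 to 0.52), or -0.064 corrected. These 3 members were those that reached 1.5-fold in mut PDZ+LPS/LPS, where 17.7% of all genes did.

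The keratins and VIM lay above 0 in mut PDZ+LPS/LPS, and the correction brought each of them closer to it. KRT18 was at 0.37 (0.34 to 0.40), or 0.034 corrected, and KRT8 at 0.28 (0.25 to 0.31), or 0.16 corrected. KRT5 was at 0.28 (0.17 to 0.39), or 0.11 corrected, and VIM at 0.25 (0.23 to 0.28), or 0.064 corrected. ZEB1 was at -0.31 (-0.47 to -0.15) and changed sign to 0.014 with the correction. The intervals of EPCAM (-0.38 to 1.02) and CDH2 (-0.86 to 0.13) included 0, so 8 of 10 members had an interval without 0, against 62.5% of all genes.

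In mut PDZ+LPS/LPS the sign of the members' values went with transcript length, as in the trend of all genes, but not always their size. The longest protein-coding transcripts of FN1, ZEB1 and CDH1 measure 8905, 6267 and 4889 nt, and these members were below 0. Those of KRT18, VIM, KRT8 and KRT5 measure 1696, 2135, 2437 and 2531 nt, and these were above 0. CDH2 (4332 nt) was below 0 and EPCAM (1724 nt) above it, each with an interval that included 0. SNAI2 (2428 nt, at 0.84) and CDH1 (at -0.65) stayed furthest from 0 after the correction, at 0.78 and -0.41. With all genes split by length into 10 groups of like size, the group of the shortest transcripts had a median of 0.40 there and that of the longest -0.47. The part of this trend in the members' values was not tested beyond the correction.

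**Figure D4:**
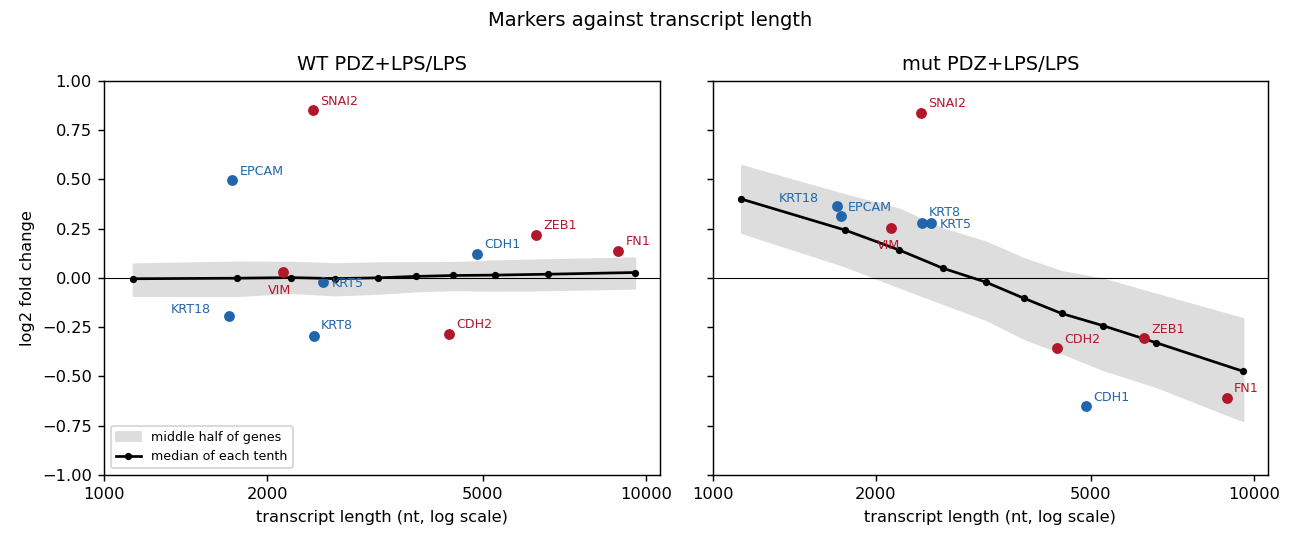
Log2 fold change against transcript length (log axis) for WT PDZ+LPS (left) and mut PDZ+LPS (right) against LPS. The line joins the medians of 10 groups of genes by length, the grey band runs from the lower to the upper quartile, and points are the epithelial (blue) and mesenchymal (red) markers. In mut PDZ+LPS/LPS the line falls from 0.40 to -0.47, with FN1 and CDH1 below it and SNAI2 above it.

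Against Control, mut PDZ+LPS had 9 of 10 members with an interval without 0, where 67.3% of all genes had one. Those that reached 1.5-fold were SNAI2 (0.85, or 0.84 corrected) and KRT5 (0.66, or 0.53 corrected), both higher, and CDH1 (-0.61, or -0.38 corrected), against 23.6% of all genes. FN1 was at -0.054 (-0.079 to -0.029) in mut PDZ+LPS/Control but at 0.35 after the correction, so its direction depends on this choice. Between the peptides, CDH1 in mut PDZ+LPS over WT PDZ+LPS was at -0.78 (-0.98 to -0.58), or -0.53 corrected, and FN1 at -0.75 (-0.77 to -0.72), or -0.27 corrected. These were the 2 members that reached 1.5-fold, where 19.1% of all genes did. KRT8 was at 0.58 (0.55 to 0.61), or 0.44 corrected, and KRT18 at 0.56 (0.53 to 0.60), or 0.21 corrected. ZEB1 was at -0.53 (-0.69 to -0.37), or -0.17 corrected. An interval without 0 was found for 7 of 10 members, against 63.3% of all genes.

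Ratios of members within a library do not depend on the scaling between libraries. CDH1 made up 84.8% (95% exact binomial interval 82.0 to 87.3%) of the summed counts of CDH1 and CDH2 in Control, 86.7% (83.9 to 89.1%) after LPS alone, 89.6% (87.1 to 91.8%) for WT PDZ+LPS and 84.2% (80.0 to 87.7%) for mut PDZ+LPS. The highest share was that of WT PDZ+LPS, whose interval overlapped that of LPS. KRT8 made up 52.9%, 54.9%, 53.1% and 53.4% of the summed counts of KRT8 and KRT18 in the same order, with LPS highest. VIM made up 39.9% of the summed counts of VIM, KRT8 and KRT18 in Control, 39.2% after LPS alone, 43.9% (43.5 to 44.4%) for WT PDZ+LPS and 38.2% for mut PDZ+LPS. WT PDZ+LPS had the highest share, with lower counts of both keratins. When KRT7 was added to the sum, the share of VIM was 22.1%, 22.6%, 24.5% and 21.3%.

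The genes whose profile over the 4 libraries was nearest to that of a member were found among 10859 genes that averaged 100 or more normalized counts, by the Euclidean distance between centred log2 values. For SNAI2 these were FLI1 (distance 0.31), IRX4 (0.33) and CA12 (0.33), and no gene came within 0.1. FLI1 had 102 normalized counts in Control, 132 after LPS alone, 192 for WT PDZ+LPS and 180 for mut PDZ+LPS, again with both peptide libraries high. For CDH1 they included ZBTB38 (0.019) and TAF1 (0.027), and 125 genes came within 0.1, so the profile of CDH1 was a common one. For FN1 they were TET3 (0.054), HELB (0.091) and SLC7A1 (0.099), the 3 genes within 0.1. These distances rest on 4 libraries.

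Of the 12 EMT transcription factors tested other than the members, 5 were called in LPS/Control, all higher: FOXC1 (3.02), TWIST1 (2.22), FOSL1 (1.29), HMGA2 (1.28) and SOX9 (1.01, at the threshold). Of all genes tested, 4.87% were called in LPS/Control. The median log2 fold change of the list was 0.92, beside -0.0010 for all genes. This list and those below were written with earlier results of these data known. Their counts stand beside the shares of all genes called that are given above for each comparison. TWIST1, a repressor of CDH1, had 550 normalized counts in Control, 2561 after LPS alone, 2490 for WT PDZ+LPS and 3809 for mut PDZ+LPS, with Control lowest. FOXC1, a forkhead factor, had 131, 1067, 950 and 1041 in the same order. ZEB2, the paralog of ZEB1, had 390, 702, 822 and 629 normalized counts, and was called in WT PDZ+LPS/Control at 1.07, or 0.99 corrected. SNAI1, the paralog of SNAI2, had 41 counts in Control, 47 after LPS alone, 53 for WT PDZ+LPS and 39 for mut PDZ+LPS. Against LPS, 0 of the 12 were called with either peptide. TCF3, with FOSL1 the most abundant of the list per kilobase, was at 0.066 in LPS/Control.

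Factors of the epithelial state were called as well in LPS/Control, 3 of 13 tested, all higher, where 4.87% of all genes tested were. ELF3, an epithelial ETS factor that responds to inflammation, had 244 normalized counts in Control, 8492 after LPS alone, 6061 for WT PDZ+LPS and 8297 for mut PDZ+LPS, so that LPS/Control was at 5.12 (4.95 to 5.30) on the log2 scale. KLF4, a factor of epithelial differentiation, was at 2.63, and TP63 was at 1.28 (0.79 to 1.84), from 46 counts in Control and 105 in LPS. KLF5 and TFAP2A, the most abundant of this list per kilobase, were at 0.83 and -0.26 and were not called. The median of the 13 was -0.017. GRHL3, a grainyhead factor of epithelial barriers, was lower with either peptide than after LPS alone, with 23 counts in Control, 40 after LPS alone, 15 for WT PDZ+LPS and 13 for mut PDZ+LPS, and was the 1 gene of this list called against LPS with WT PDZ (-1.26, -2.28 to -0.43) and with mut PDZ (-1.25, -2.33 to -0.37, or -1.28 corrected).

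Among 23 mesenchymal genes other than the members, 3 were called in LPS/Control, all higher, where 4.87% of all genes tested were. They included the matrix protein TNC (2.65) and the matrix-associated protein CTGF (1.46). TNC had 237 normalized counts in Control, 1489 after LPS alone, 1291 for WT PDZ+LPS and 1294 for mut PDZ+LPS. In WT PDZ+LPS/Control these 3 were called together with CYR61 (1.23), CD44 (1.07) and LOX (1.02), and in mut PDZ+LPS/Control together with CYR61 (1.66, or 1.6 corrected) and S100A4 (1.15, or 0.61 corrected). Against LPS, 0 of 23 were called with WT PDZ and 0 of 22 with mut PDZ, while NES was lower in mut PDZ+LPS over WT PDZ+LPS, with 12 counts against 30. TPM2, next to CTGF the most abundant of the list per kilobase, was at -0.10 in LPS/Control.

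Of the 11 other keratins tested, KRT6B and KRT16, keratins of stressed and wounded epithelia, were called in LPS/Control, where 4.87% of all genes tested were. KRT6B had 8 counts in Control, 569 after LPS alone, 372 for WT PDZ+LPS and 485 for mut PDZ+LPS, so that LPS/Control was at 6.07 (5.28 to 7.48) on the log2 scale. Reads of KRT6B can be shared with its near-identical copies, and KRT6A had 307 counts in Control and 374 in LPS. KRT16 had 9, 27, 36 and 28 counts in that order. KRT19 was lower in WT PDZ+LPS/Control at -1.09 (-1.47 to -0.73), with 216 counts in Control and 87 in WT PDZ+LPS. In mut PDZ+LPS/Control, KRT17 (1.31) and KRT23 (1.08) were called beside KRT6B and KRT16, but were at 0.90 and 0.97 corrected. Against LPS, 0 of the 11 were called with either peptide.

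**Figure D5:**
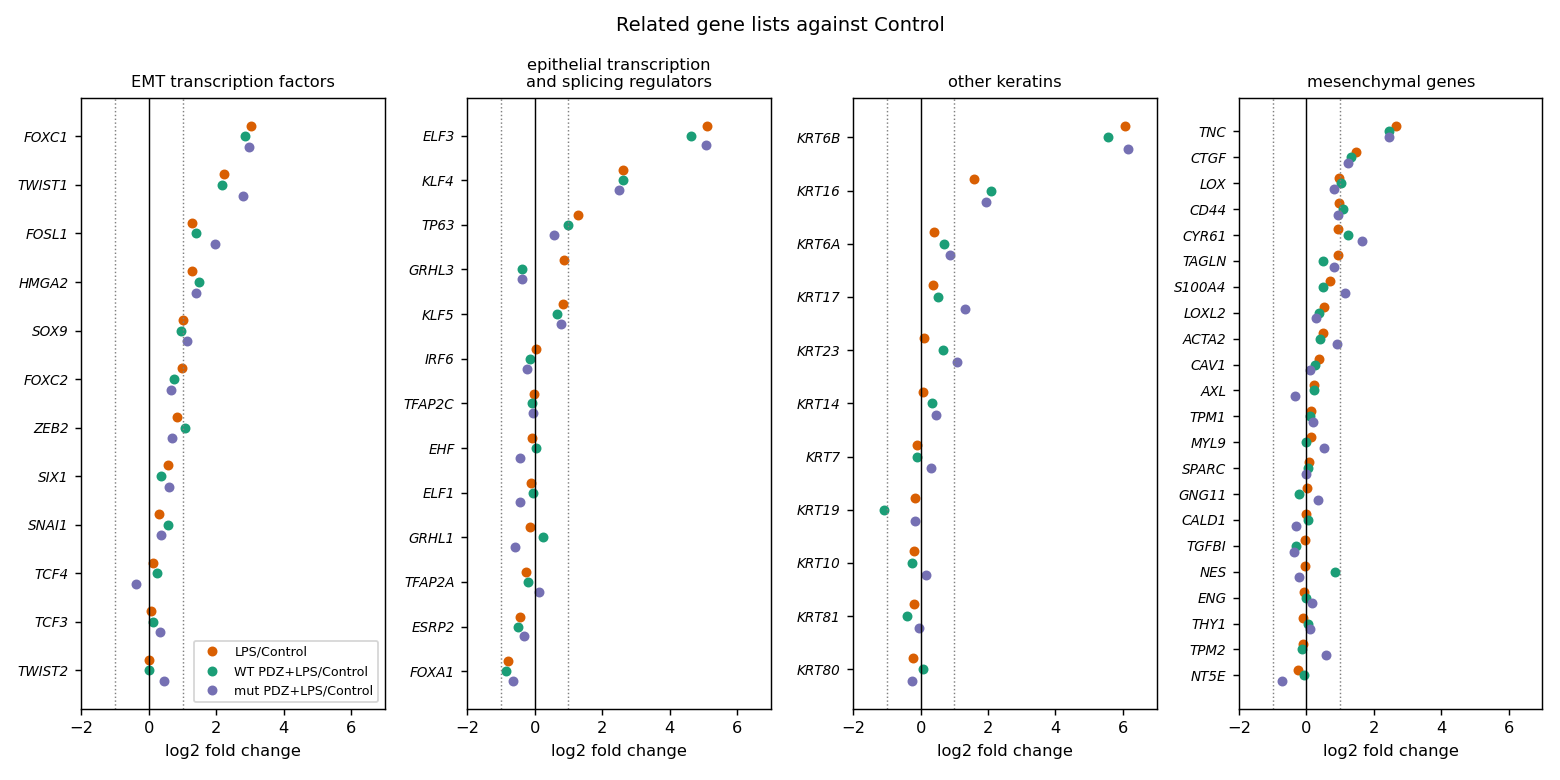
Log2 fold changes against Control of those genes of 4 lists, 1 mesenchymal gene left out, that averaged 16 or more normalized counts, for LPS alone and for either peptide with LPS (points, uncorrected), ordered by LPS/Control, with dotted lines at 2-fold. KRT6B, ELF3, FOXC1, TNC and TWIST1 stand above 2-fold in all 3 comparisons.

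Basal cell markers gave LAMB3, a laminin chain of the basement membrane, at 4.45 (3.98 to 5.06) and TP63 as the 2 of 10 called in LPS/Control. Of all genes tested, 4.87% were called there. LAMB3 had 32 counts in Control, 668 after LPS alone, 709 for WT PDZ+LPS and 507 for mut PDZ+LPS. The summed level of the basal list was 640 CPM in Control, 709 after LPS alone, 700 for WT PDZ+LPS and 964 for mut PDZ+LPS, where KRT5 was highest too, and the part of either in the other was not tested. KRT17, which stands in both this list and the keratin list, took up 6045 of the 15882 counts of the list in Control and 11114 of 18978 in mut PDZ+LPS. KRT17 was at 0.94 in mut PDZ+LPS/LPS, or 0.47 corrected, while 0 of the 10 basal genes tested were called and their median was -0.036. ITGB4, the basal integrin, was at 0.13 in LPS/Control.

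The junction genes around the cadherins were not called in LPS/Control, with 0 of 12 adherens junction genes and 0 of 11 desmosome genes. The catenins CTNNA1 and CTNNB1, which tie E-cadherin to the actin skeleton, were at 0.075 and 0.31. The plakin PPL and the plakophilin PKP2, the most abundant desmosome genes per kilobase, were at -0.073 and 0.21 in LPS/Control. In mut PDZ+LPS/LPS, CDH13 (-1.05, or -0.61 corrected) and the desmosome plakophilin PKP1 (-1.16, or -0.98 corrected) were lower. The median of the adherens junction list in this comparison was -0.27, or -0.15 corrected, and CDH1 lay below both. In mut PDZ+LPS over WT PDZ+LPS, PKP1 was lower again at -1.02, or -0.84 corrected, while CDH4 and CDH6 were higher on 14 against 3 and 16 against 8 counts. DSG3 was called in mut PDZ+LPS/Control at 1.10, or 1.39 corrected, with 28 counts against 17.

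Of the 10 epithelial surface genes tested other than EPCAM, 0 were called in LPS/Control and 0 in WT PDZ+LPS/LPS. CD24 and LSR, the most abundant per kilobase, were at -0.16 and 0.29 in LPS/Control. In mut PDZ+LPS/LPS, MARVELD2, a protein of tricellular junctions, was lower at -1.04 (-1.47 to -0.64), or -0.82 corrected, and the protease PRSS8 was higher on 15 against 6 counts. In mut PDZ+LPS over WT PDZ+LPS, MARVELD2 was at -1.31, or -1.08 corrected. MUC1 was called in mut PDZ+LPS/Control at 1.05, or 0.67 corrected.

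Some reads of the members could belong to overlapping or similar genes. VIM-AS1 and ZEB1-AS1, which lie antisense to VIM and ZEB1, had 24 to 40 and 83 to 100 counts in the 4 libraries. The counts of ZEB1-AS1 came to 10.6% of those of ZEB1 in Control, 11.2% after LPS alone, 10.3% for WT PDZ+LPS and 15.9% for mut PDZ+LPS, whereas those of VIM-AS1 came to at most 0.167% of VIM. The study's methods name a directional library kit, which keeps the strand of the RNA. Whether the counting used the strand is not given in the sources used here. Without it, reads from a stretch that a gene shares with its antisense partner cannot be told apart. The pseudogenes KRT8P41 and KRT18P55 had between 0 and 3 counts in each library. KRT8 and KRT18 have many processed copies in the genome, and their counts are uncertain to the extent that such copies took reads.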

How the data were processed

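Poly(A) RNA of 4 BEAS-2B cultures, 1 library per condition, was sequenced in pairs. Per the labels and the study's methods, the authors trimmed the reads, removed those of low quality and mapped them with TopHat to hg19. The values they deposited are raw read counts per gene symbol. The counting tool, annotation and strand setting are not given in the sources used here. The 10 members and the gene lists, written from general knowledge, were chosen with earlier results of these data known. Size factors came from the median of ratios (DESeq2 1.42.0, R 4.3.3) over all 4 libraries, with a pseudocount of 1, a fold of 2 and a minimum of 16 normalized counts in one of the 2 libraries. No test was possible, and 95% intervals were exact (scipy 1.17.1). Genes named were the 10 members, the 2 highest per kilobase in each list, every list gene called (if over 6, the 3 highest and 3 lowest), the 3 nearest profiles of the 3 members of widest range, and antisense or pseudogene partners. Alternatives were a pseudocount of 5, scaling by TMM (edgeR 4.0.16), by the upper quartile or by total counts, no minimum or one of 64, folds of 1.5 and 3, and removal of a lowess trend (span 0.3, statsmodels 0.14.6) over transcript length and then transcript GC content (GENCODE 29, longest coding transcript), which were known for 12127 of the 13072 genes that averaged 16 or more normalized counts. RefSeq synonyms were used to match older symbols. A few genes that these rules would name are not reported here. The 2-fold calls, the binomial intervals and the length correction were tested on simulated data for LPS/Control, and the other steps were not. Python 3.11.15, numpy 2.4.6, pandas 2.3.3 and matplotlib 3.10.9 were used.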

Additional observations from a re-analysis of the deposited data

Results flagged for a closer look

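For 4 members the libraries of the 2 peptides lay on opposite sides of the LPS library, each with a counting interval that left out 0, and this difference was not tested, since each condition had 1 library. FN1 was at 0.14 in WT PDZ+LPS/LPS and at -0.61 in mut PDZ+LPS/LPS, and ZEB1 at 0.22 and -0.31. The partner keratins went the other way, KRT8 at -0.30 and 0.28 and KRT18 at -0.19 and 0.37. With the length and GC trend removed, the values in WT PDZ+LPS/LPS were 0.13 for FN1, 0.19 for ZEB1, -0.27 for KRT8 and -0.17 for KRT18. Those in mut PDZ+LPS/LPS were -0.15 for FN1, 0.014 for ZEB1, 0.16 for KRT8 and 0.034 for KRT18. The signs were thus still opposite for FN1, KRT8 and KRT18 and not for ZEB1. The corrected values have no interval, and those of KRT18 and ZEB1 in mut PDZ+LPS/LPS were close to 0.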

How the results depend on the processing

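No member was called at 2-fold under any of the alternatives that kept this fold, nor at 3-fold. At 1.5-fold, 2 members were called for WT PDZ+LPS and 3 for mut PDZ+LPS against Control, 1 and 3 in the same libraries against LPS, and 2 between the peptides. Of the 60 log2 fold changes of the members, TMM scaling and a pseudocount of 5 each left 60 within their counting interval. Scaling by total counts moved 22 beyond it, with the median of all genes at -0.13 in LPS/Control, and the upper quartile moved 16. Removal of the length and GC trend moved 29. With the median transcript length, the levels at rest were 7.73 for CDH1, 6.21 for CDH2, 733 for VIM, 159 for FN1, 11.8 for ZEB1, 78.4 for KRT5, 454 for KRT8 and 438 for KRT18 (CPM per kilobase), and those of EPCAM and SNAI2 stayed within counting error. No paired analysis was possible because each condition had 1 library. Depth limits SNAI2, EPCAM and CDH2, with 37 to 114 counts a library, most.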
